A study of Mus musculus with 12 samples.

Results

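Dendritic cells (DCs) that had met syngeneic memory T cells were compared, gene by gene, with DCs that had met lipopolysaccharide (LPS, a cell wall component of Gram-negative bacteria). The comparison rests on 6 of the 12 RNA-seq libraries of the study: 3 of DCs cultured with B6 effector memory T cells (SynTem 1 to 3) and 3 of DCs cultured with LPS (LPS 1 to 3). All DCs were C57BL/6 (B6) splenic cells from mice carrying B16 tumours that secrete Flt3 ligand, which makes DCs multiply. Spleens were taken at a tumour diameter of 1 cm, T, B and NK cells and macrophages were removed with beads, and every culture lasted 3 h before DCs were sorted on CD11b and CD11c. The other 6 libraries were DCs cultured with no stimulus (DC only 1 to 3), used here as the background level of each gene, and DCs with alloantigen-specific memory T cells described as BALB/c derived (AlloTem 1 to 3), which enter only the shared estimate of the spread. No source used here states the LPS dose, the ratio of T cells to DCs or whether a library came from 1 mouse or several. A metadata table deposited with the counts assigns the libraries to batches 1 to 3, and in all 12 the batch matches the replicate number. Nothing says that the replicates came from separate animals or cultures, so a p-value here measures only the spread between these libraries.

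LPS is recognised by TLR4 with MD-2 and CD14, and signals through MyD88 and TRIF to NF-kB, MAP kinases and type I interferon. NF-kB raises cytokine, chemokine and costimulatory genes, and also its own inhibitors, among them IkB-alpha (Nfkbia) and A20 (Tnfaip3). Memory T cells reach DCs by another route: contact through CD40 ligand and other TNF family members, and secreted cytokines such as interferon gamma, which acts in part through IRF1 on guanylate-binding proteins (GBPs) and immunity-related GTPases (IRGs).

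The libraries held 13903574, 14659362 and 15982118 counts for SynTem 1 to 3 and 16587165, 17459890 and 17472400 for LPS 1 to 3. Levels are given below in that order of libraries, in CPM, a gene's counts scaled to a common library size after edgeR's TMM adjustment. Genes that define DCs were abundant in all 6 libraries: Flt3, the receptor for Flt3 ligand, lay between 316.1 and 452.2 CPM, Itgax, which encodes CD11c, between 261.2 and 470.2, and Cd74, the MHC class II invariant chain, between 4820 and 9618.

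The SynTem libraries held more T cell RNA than the LPS libraries, although the sort was set on DC markers. Summed over 28 T cell markers, the level was 428.3, 889.1 and 725.1 CPM in SynTem and 296.7, 151.3 and 101.8 CPM in LPS, so the groups did not overlap and SynTem 2 stood highest. With no stimulus the sum was 152.7, 167.7 and 96.25 CPM. Every marker had reads in each SynTem library, and 1, Bcl11b, was at 0 in LPS 3. In bulk RNA, more T cells and more T cell RNA per T cell cannot be told apart.

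The libraries also differed in the sex-linked RNA they carried, and this difference was not the same in both groups. Summed over 4 Y-linked transcripts, LPS 1 and LPS 2 were at 0 CPM and LPS 3 at 219.6, whereas SynTem 1 was at 10.26, SynTem 2 at 175.1 and SynTem 3 at 130.9. Xist, transcribed from the inactive X chromosome, was 610, 1014 and 137.6 CPM in LPS and 798, 312.1 and 455.1 CPM in SynTem. SynTem 2 therefore differed from LPS 2 and from DC only 2, which share its batch number, in both measures. SynTem 3 also differed from its batch mates. Its Xist was above LPS 3 and DC only 3 (137.6 and 145.7 CPM), and its Y-linked RNA was below them (219.6 and 208.6 CPM). What part these source differences have in any result was not tested, beyond the fits with a Y-linked covariate given below.

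**Figure D1:**
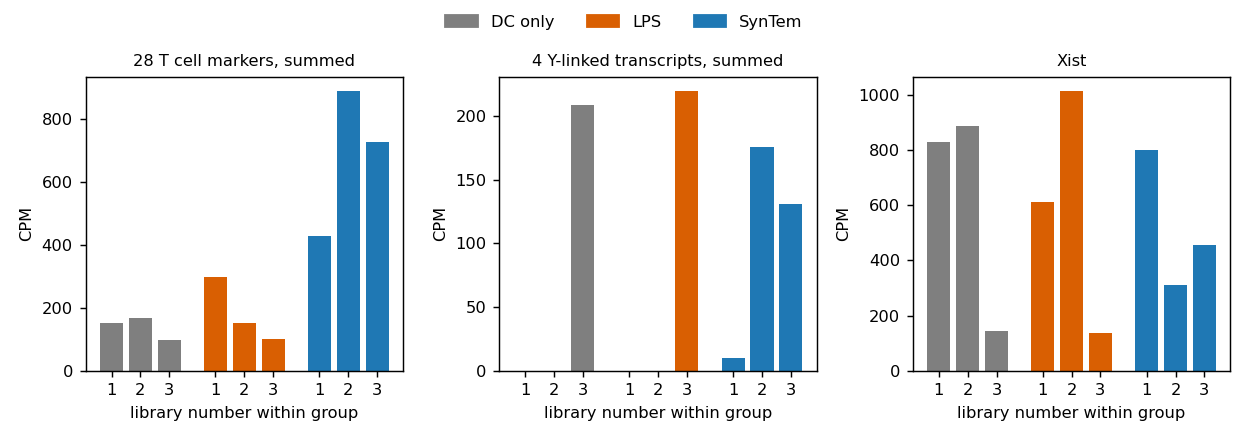
Summed CPM of 28 T cell markers, summed CPM of 4 Y-linked transcripts and CPM of Xist in each library of DC only, LPS and SynTem; each bar is 1 library and every axis starts at 0. All 3 SynTem libraries lie above all LPS libraries in T cell RNA (428.3 to 889.1 against 101.8 to 296.7 CPM), and SynTem 2 carries Y-linked RNA (175.1 CPM) that LPS 2 and DC only 2 lack.

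Over all genes the difference between the stimuli was small against the spread. In edgeR's quasi-likelihood fit over all 12 libraries, 7 of 14413 tested genes passed a Benjamini-Hochberg adjusted p of 0.05, which is 0.0486% of them. The 6 that were higher with SynTem (0.0416%) were Cd4, Cd3d, Trac, Lat, Bcl11b and Izumo1r, and the 1 that was lower (0.00694%) was Gm15922. With batch as a block, 28 genes passed (0.194%), 15 higher (0.104%) and 13 lower (0.0902%), and these included all 7. At an unadjusted p of 0.05 the fit had 1148 genes (7.97%), 612 higher (4.25%) and 536 lower (3.72%). Of all estimates 50.8% were above 0 and 49.2% below. The CPM ranges of the 2 groups did not overlap for 977 genes higher with SynTem (6.78%) and 1029 lower (7.14%). The median log2 fold change of all genes was 0.00495.

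These counts rested on single libraries. No gene was called without DC only 1, LPS 1, SynTem 2 or SynTem 3, where 1091, 1244, 906 and 948 genes had an unadjusted p under 0.05, and 1 was called without LPS 2 and 1 without LPS 3. Without SynTem 1, the SynTem library with the least T cell and Y-linked RNA, 37 genes were called. The count was 4 without AlloTem 1, 4 without AlloTem 3, 12 without DC only 3 and 21 without AlloTem 2. Counts of DC only 1 and DC only 2 were closer to each other than those of any other pair within a group. Their Spearman correlation was 0.9915, against 0.9648 to 0.9799 for the other pairs. Both enter the shared estimate of the spread, and whether they are independent replicates was not tested. Fitted on the 6 SynTem and LPS libraries alone, edgeR called 0 genes, with 1038 at an unadjusted p under 0.05, whereas DESeq2 on all 12 libraries called 198 (1.37%).

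**Figure D2:**
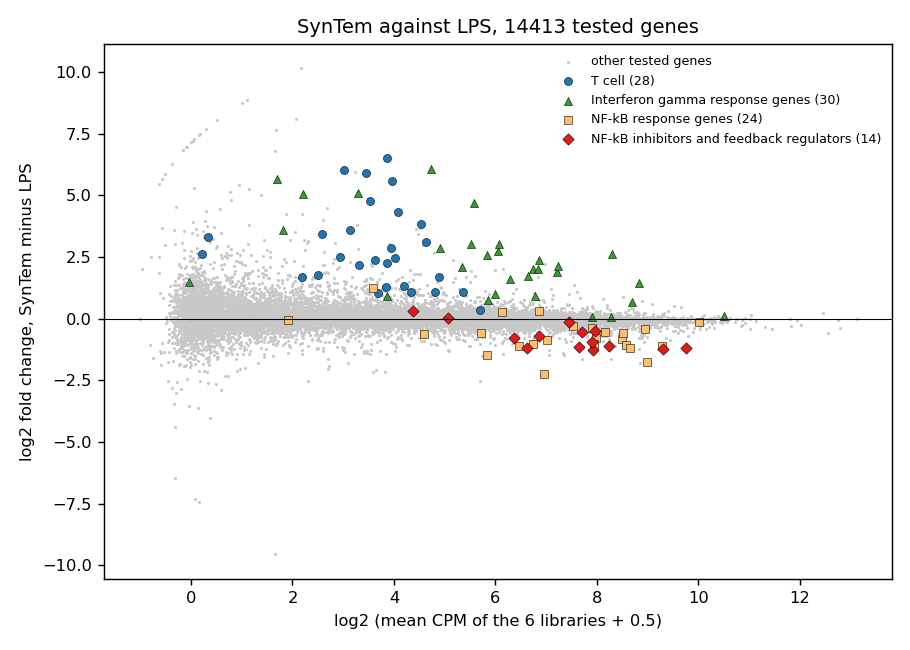
Log2 fold change of SynTem over LPS against log2 mean level (CPM + 0.5) over the 6 libraries for 14413 tested genes, 1 point a gene, with 4 gene lists marked. T cell markers (median 2.49) and interferon gamma response genes (median 2.06) lie above 0, and NF-kB response genes (median -0.70) and NF-kB inhibitors (median -0.85) mostly below.

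T cell genes made up the called genes that were higher with SynTem. Bcl11b, Cd3d and Izumo1r were at 0.57 CPM or less in every LPS and DC only library. They passed the filter on low counts only through the T cell cultures, and their folds rest on few LPS reads. Cd3d, a chain of the CD3 complex that carries the T cell receptor's signal, was at 7.06, 32.24 and 22.59 CPM in SynTem, at 0.57, 0.30 and 0.17 CPM in LPS and at 0.25, 0.46 and 0.10 CPM with no stimulus. It rose 59.7-fold with SynTem over LPS (log2 5.90 ± 0.73 SE, n = 3 a group, adjusted p = 0.033 by edgeR), and SynTem 1 was the lowest of the 3 SynTem libraries. Bcl11b, a transcription factor of T lineage commitment, rose 66.2-fold (log2 6.05 ± 0.82, edgeR adjusted p = 0.037), from 0.44, 0.24 and 0 CPM to 9.59, 20.01 and 15.53. Trac, the constant segment of the T cell receptor alpha chain, rose 27.8-fold (log2 4.80 ± 0.66, edgeR adjusted p = 0.037), and Lat, the adaptor that couples the receptor to downstream kinases, rose by a log2 fold change of 3.58 ± 0.48 (edgeR adjusted p = 0.037).

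Cd4, the coreceptor of helper T cells, is also made by a subset of mouse splenic DCs and was the one of these 6 with the least relative spread in SynTem. Its level was 22.52, 30.28 and 24.60 CPM in SynTem, 2.95, 5.11 and 1.51 CPM in LPS and 2.68 to 3.51 CPM with no stimulus, 8.08-fold higher with SynTem (log2 3.02 ± 0.36, edgeR adjusted p = 0.033). Izumo1r, the folate receptor 4 gene known from regulatory and antigen-experienced CD4 T cells, fell outside the naming rule on mean level and is named because it passed the test. It had 254 reads over the SynTem libraries and 1 over the LPS libraries, a ratio of 279 with a counting interval from 49.6 to 11100, and its levels in SynTem were 2.53, 7.16 and 6.34 CPM. Each of these 6 genes missed the threshold without DC only 1, without LPS 1, without SynTem 2 and without SynTem 3.

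The rest of the T cell list pointed the same way with less support. All 28 of its tested members had a positive log2 fold change, with a median of 2.49 where the median of all genes was 0.00495, and 22 had no overlap between the groups (6.78% of all genes). The median was 3.80 without LPS 1 and 1.44 without SynTem 2 and SynTem 3 together. The list's median log2 ratio was 0.71 in batch 1, 3.87 in batch 2 and 3.37 in batch 3. Cd3e and Cd3g, the other CD3 chains beside Cd3d, had estimates of 5.61 and 6.51 and edgeR adjusted p values of 0.051 and 0.053. With batch as a block, 7 of the 15 genes called higher were T cell list members, the 3 added ones being Cd5, Cd6 and Cd27, a costimulatory receptor. Cd27 was 14.94, 22.80 and 21.17 CPM in SynTem and 8.11, 8.90 and 7.23 CPM in LPS, with an edgeR adjusted p of 0.041 under the block and 0.051 without it.

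Some T cell and cytotoxic transcripts were spread unevenly over the SynTem libraries. Themis, a regulator of T cell receptor signalling, was at 1.78, 11.84 and 8.54 CPM in SynTem and had 1 read in all LPS libraries. Trdc, the constant segment of the T cell receptor delta chain, was 3.12, 26.16 and 22.23 CPM in SynTem and 3.14, 0 and 0.56 CPM in LPS. Gzmb, a cytotoxic granule protease, was 48.69, 134.8 and 119.5 CPM in SynTem and 71.57, 4.10 and 1.01 CPM in LPS. SynTem 1 was thus not above LPS 1 in Trdc and Gzmb, while SynTem 2 and 3 were above LPS 2 and 3. Themis and Trdc were chosen after their values were seen.

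Of 20 cytokines and effectors of activated T cells 12 had enough counts to be tested, and all 12 had a positive estimate, with a median of 0.80. The median log2 ratio was -0.01 in batch 1, 0.82 in batch 2 and 1.15 in batch 3. In every batch 4 were higher with SynTem (16.5% of all genes). None passed in the fit without block or covariate. Ifng, interferon gamma itself, was 3.64, 1.46 and 1.13 CPM in SynTem and 3.46, 0.12 and 0 CPM in LPS, with an estimate of 0.80 ± 1.59 and an edgeR adjusted p of 0.92, and 25.9% of its exon bases are also annotated to Gm49751. Cd40lg, the ligand through which helper T cells engage CD40, had 11, 11 and 15 reads in SynTem and none in LPS, at least 13.5-fold higher against a floor of 3 reads over the LPS group, and passed with the Y-linked covariate (edgeR adjusted p = 0.046). With no reads in LPS or DC only, Cd40lg passed the filter on low counts only through the T cell cultures. The shared sign of the list was therefore set in part by that filter. Tnfsf8, which encodes CD30 ligand, was 15.46, 29.45 and 24.31 CPM in SynTem against 7.60, 11.22 and 11.15 CPM in LPS, and passed with batch as a block (edgeR adjusted p = 0.033, against 0.14 without it). With no stimulus Tnfsf8 lay between 14.68 and 16.75 CPM, above all LPS libraries.

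Interferon gamma response genes were higher in the SynTem libraries as a list, without a member passing the test. All 30 tested members had a positive log2 fold change (50.8% of all genes), and the median was 2.06. With no filter on low counts 30 of the 32 listed members were positive, with a median of 2.02. The shared sign of the tested members was therefore set in part by that filter. On the SynTem side 19 had an unadjusted p under 0.05 (4.25% of all genes). For 16 the groups did not overlap (6.78%), and 18 were higher with SynTem in every batch (16.5%). The median log2 ratio was 1.35 in batch 1, 0.61 in batch 2 and 3.47 in batch 3. None passed in the fit without the block. With batch as a block 1 passed (0.104% of all genes were called higher in that fit). With each library's Y-linked level as a covariate 8 did (0.215% of all genes), and DESeq2 called 12 (1.01% of all genes). The median of the list was 2.34 with the block, 2.81 with the Y-linked covariate and 1.25 without SynTem 3.

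The IRG genes Igtp and Irgm2, which encode GTPases that act on the membranes around intracellular pathogens, have overlapping annotations on chromosome 11 and had the smallest unadjusted p of the list after Gbp10. Igtp (chr11:58199556-58207591, plus strand) was at 117.5, 80.5 and 160.9 CPM in SynTem, at 16.34, 22.02 and 5.43 CPM in LPS and at 22.91, 21.36 and 12.20 CPM with no stimulus. All SynTem libraries were above all LPS libraries and above DC only, and LPS overlapped with DC only. The estimate was 3.04 ± 0.55 on the log2 scale, or 8.20-fold, with an edgeR adjusted p of 0.10, and 0.0097 with the Y-linked covariate. Irgm2 (chr11:58199618-58222782, plus strand) was at 139.4, 61.56 and 143.4 CPM in SynTem and 18.35, 21.19 and 12.43 CPM in LPS, 6.63-fold (log2 2.73 ± 0.47), with an edgeR adjusted p of 0.087, and 0.0097 with the Y-linked covariate. SynTem 2 was the lowest SynTem library for both genes, and it was the one with the most T cell RNA. Which cells the RNA of these 2 genes came from was not tested. The annotations of Igtp and Irgm2 share 8.01% and 4.39% of their exon bases, and GBP and IRG genes have close copies, so single members carry the uncertainty of how reads were assigned.

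The promoters of 4 genes of the list are shown because they hold a short motif before the start of transcription. Each line gives the 250 bases before the RefSeq start (build GRCm38.p6), 5′ to 3′ on the gene's strand, with capitals marking a GAS-type motif (TTCNNNGAA, the gamma-activated site type, which reads the same way on both strands).
Igtp, chr11:58199306-58199555, plus strand: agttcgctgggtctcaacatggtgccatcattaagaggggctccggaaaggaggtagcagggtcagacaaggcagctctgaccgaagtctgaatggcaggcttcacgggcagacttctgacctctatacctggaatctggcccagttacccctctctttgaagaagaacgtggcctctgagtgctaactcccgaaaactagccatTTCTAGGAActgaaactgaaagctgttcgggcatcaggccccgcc
Irgm2, chr11:58214727-58214976, plus strand: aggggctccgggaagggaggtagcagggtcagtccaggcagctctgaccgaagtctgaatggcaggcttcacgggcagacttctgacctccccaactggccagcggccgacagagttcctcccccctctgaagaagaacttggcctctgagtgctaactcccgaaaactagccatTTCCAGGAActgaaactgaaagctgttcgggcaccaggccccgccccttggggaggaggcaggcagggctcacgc
Gbp7, chr3:142530086-142530335, plus strand: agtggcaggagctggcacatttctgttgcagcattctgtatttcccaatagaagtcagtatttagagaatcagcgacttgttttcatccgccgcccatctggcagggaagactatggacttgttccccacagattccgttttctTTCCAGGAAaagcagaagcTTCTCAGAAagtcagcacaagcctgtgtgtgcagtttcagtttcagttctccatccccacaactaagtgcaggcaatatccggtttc
Irf1, chr11:53769764-53770013, plus strand: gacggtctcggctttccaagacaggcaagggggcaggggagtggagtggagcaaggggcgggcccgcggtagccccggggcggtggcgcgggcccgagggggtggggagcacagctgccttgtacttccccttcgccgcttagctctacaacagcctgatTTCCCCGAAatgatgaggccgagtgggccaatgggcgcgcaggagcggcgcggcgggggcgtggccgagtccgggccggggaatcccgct

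The motif begins 45 bases before the RefSeq start in Igtp, 75 bases in Irgm2, 106 and 87 bases in Gbp7 and 90 bases in Irf1. The RefSeq start of Irgm2 lies 15359 bases from the start in the GENCODE annotation whose span is given above, so its window lies inside that span, and the 2 annotations disagree on where the gene begins. The Igtp and Irgm2 windows share an identical stretch of 55 bases that lies upstream of the motif. The bases next to the motif on both sides also match, while the motifs read TTCTAGGAA and TTCCAGGAA. The 2 windows are therefore not independent. Of 19 interferon gamma response genes with a RefSeq window, 10 held the motif (52.6%). It was in 5.99% of the windows of 10143 tested genes, and in 4 of 26 windows (15.4%) of the type I interferon-stimulated genes described below. Among other lists it was in 2 of 13 windows of NF-kB inhibitors (15.4%) and 3 of 20 of NF-kB response genes (15%). It was in 2 of 17 windows of T cell genes (11.8%) and 0 of 12 of inflammatory cytokines. The 4 genes shown were chosen among windows that hold the motif and no exon bases. A match describes the letters of the window and shows no binding.

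The GBP genes, whose products coat and break pathogen compartments, followed the IRG genes in direction. Gbp2 was at 122.4, 94.5 and 295.3 CPM in SynTem, 35.82, 46.12 and 43.30 CPM in LPS and 27.48 to 44.32 CPM with no stimulus, 4.09-fold (log2 2.03 ± 0.41, edgeR adjusted p = 0.13), and 1.37 on the log2 scale without SynTem 3. Gbp7 was at 61.26, 41.80 and 186.2 CPM in SynTem and 17.91, 17.57 and 12.88 CPM in LPS (log2 2.58 ± 0.56, edgeR adjusted p = 0.15). In both genes SynTem 3 was the highest and SynTem 2 the lowest of the SynTem libraries, with no overlap with LPS. Gbp10, a low-level member, was 4.68, 8.80 and 10.67 CPM in SynTem and 0.25, 0.30 and 0.17 CPM in LPS. It was the list member that passed with batch as a block (log2 5.05 ± 0.73, edgeR adjusted p = 0.035), against an adjusted p of 0.071 without the block, and 46.3% of its exon bases are also annotated to Gm43302 on the same strand.

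Regulators and secreted products of the same response were more uneven. Irf1, the transcription factor gene that relays interferon gamma signals, was at 842.6, 357.7 and 788.5 CPM in SynTem, 326.4, 189.8 and 207.1 CPM in LPS and 339.2, 310.5 and 123.9 CPM with no stimulus, 2.75-fold (log2 1.46 ± 0.47, edgeR adjusted p = 0.41). Socs1, an inhibitor of JAK signalling, was 32.93, 23.06 and 98.78 CPM in SynTem and 9.68, 7.78 and 3.75 CPM in LPS (log2 2.87 ± 0.75, edgeR adjusted p = 0.28). Neither gene overlapped between the groups. Cxcl10, a chemokine for CXCR3-bearing T cells, was 167.9, 28.38 and 1422 CPM in SynTem and 96.89, 113.7 and 49.96 CPM in LPS, so that SynTem 2 was below every LPS library. Cxcl9, its relative, was 47.87, 19.44 and 517.3 CPM in SynTem and 18.79, 70.88 and 21.40 CPM in LPS, and its estimate turned from 2.40 to -0.15 without SynTem 3.

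**Figure D3:**
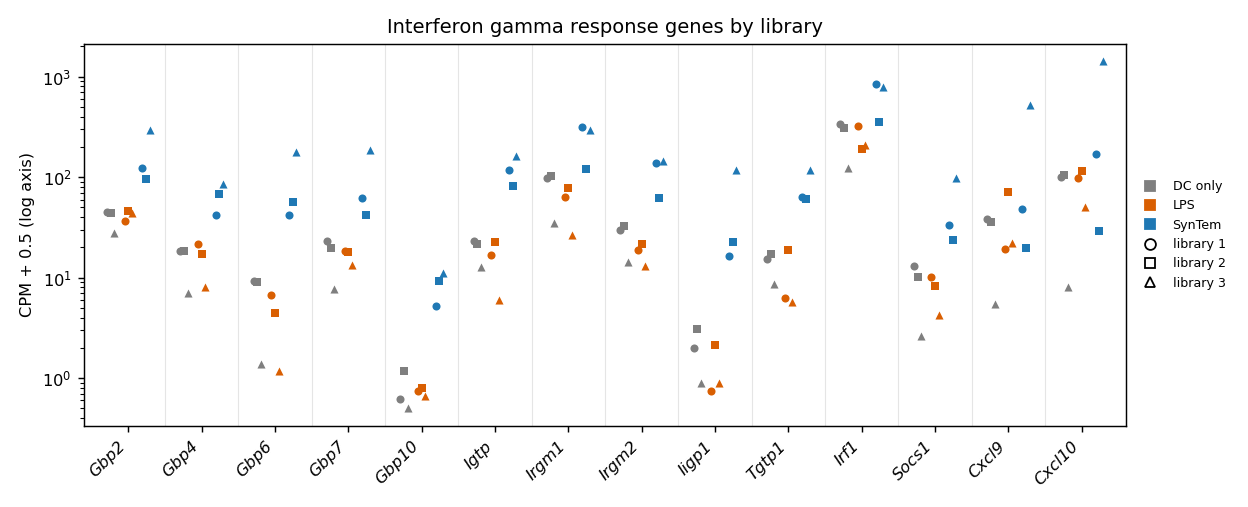
CPM + 0.5 on a log axis for 14 interferon gamma response genes in DC only, LPS and SynTem libraries, 1 point a library. SynTem lies above LPS in every library for Igtp (80.5 to 160.9 against 5.43 to 22.02 CPM), Irgm2 and Gbp2, whereas for Cxcl9 and Cxcl10 SynTem 2 lies within or below the LPS range.

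Type I interferon-stimulated genes, which overlap in part with the interferon gamma response, did not separate the stimuli. Of 34 members 11 had a positive estimate, with a median of -0.30, and none passed. None had groups without overlap, against 6.78% of all genes higher with SynTem and 7.14% lower. The median log2 ratio was 0.30 in batch 1, -2.27 in batch 2 and 1.82 in batch 3. The median was 0.36 with batch as a block and 1.09 with the Y-linked covariate, so its sign depended on the fit. Isg15, a ubiquitin-like antiviral protein, was 13.90, 3.74 and 18.44 CPM in SynTem, 17.41, 54.61 and 4.43 CPM in LPS and 40.0, 36.78 and 2.40 CPM with no stimulus. The lowest Isg15 levels of LPS and DC only were in batch 3, and the lowest of SynTem was SynTem 2.

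The inhibitors and feedback regulators of NF-kB lay mostly on the LPS side. Of 14 members 12 had a negative estimate (49.2% of all genes), with a median log2 fold change of -0.85. On the LPS side 9 had an unadjusted p under 0.05 (3.72% of all genes) and 8 did not overlap (7.14%). In every batch 11 were lower with SynTem (18.0%). The batch medians were -0.61, -1.37 and -0.74. No member passed without the block and 2 passed with it, Nfkbid and Zc3h12a (0.0902% of all genes were called lower with the block). With a T cell covariate, which did not overlap between the groups, all 14 estimates were negative, with a median of -1.11. That covariate cannot be fully told apart from the stimulus. With the Y-linked covariate the median was -0.62. Without SynTem 2 and SynTem 3 together, the libraries with the most T cell and Y-linked RNA of their group, it was -0.36.

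Nfkbid, which encodes the nuclear IkB protein IkB-NS, was at 159.7, 123.1 and 126.4 CPM in LPS, 94.19, 44.53 and 43.16 CPM in SynTem and 94.14, 83.56 and 59.08 CPM with no stimulus. LPS was above both other groups in each batch, and its log2 fold change under the block was -1.25 ± 0.18, with an edgeR adjusted p of 0.036, against 0.32 without the block. Zc3h12a, the RNase Regnase-1 that degrades cytokine mRNA, was at 129.3, 92.6 and 89.73 CPM in LPS and 82.67, 49.91 and 48.97 CPM in SynTem (block -0.80 ± 0.11, edgeR adjusted p = 0.027, and 0.34 without the block). Neither gene overlapped between LPS and SynTem.

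Nfkbia and Tnfaip3, the classical NF-kB feedback genes, had wider spread. Nfkbia was at 1410, 1085 and 1119 CPM in LPS, 847.8, 312.9 and 421.8 CPM in SynTem and 1027, 968.8 and 475.5 CPM with no stimulus, 2.29-fold higher with LPS than with SynTem (log2 -1.19 ± 0.38, edgeR adjusted p = 0.41). Tnfaip3 was at 1026, 826.8 and 787.8 CPM in LPS and 594.6, 209.0 and 330.5 CPM in SynTem (log2 fold change -1.22 ± 0.43, edgeR adjusted p = 0.47). SynTem 1 was the highest and SynTem 2 the lowest SynTem library for both, and SynTem 2 and 3 were below the DC only range for Nfkbia.

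Costimulatory genes were mostly at higher estimates with LPS. Of 25 tested members of the costimulation and maturation list 20 had a negative estimate, the median was -0.59 and 8 did not overlap on the LPS side (7.14% of all genes). The median log2 ratio was -0.08 in batch 1, -1.41 in batch 2 and -0.55 in batch 3. The median of the fit was -1.14 without SynTem 1, -0.36 without SynTem 2, -0.27 without SynTem 3 and -0.17 with the Y-linked covariate. Without SynTem 2 and SynTem 3 together it was -0.042, with 12 of 25 positive. Icosl, the ligand of the T cell costimulatory receptor ICOS, was at 506.2, 747.8 and 639.5 CPM in LPS, 301.7, 276.8 and 240.4 CPM in SynTem and 517.6, 515.8 and 361.8 CPM with no stimulus. SynTem was the low group here, with every library below all of LPS and DC only. Icosl passed with batch as a block (log2 -1.20 ± 0.16, edgeR adjusted p = 0.027) and with the Y-linked covariate (0.049), and missed the threshold with neither (0.084). Tnfsf9, which encodes 4-1BB ligand, was at 233.9, 158.1 and 222.3 CPM in LPS and 72.26, 30.91 and 28.40 CPM in SynTem (log2 fold change -2.23 ± 0.45, edgeR adjusted p = 0.13), and 14.9% of its exon bases overlap Gm11110 on the other strand. Cd80 and Cd40 had estimates of -1.02 and -1.03 without overlap, Cd86 of -0.29 and Ccr7, the receptor that guides mature DCs to lymph nodes, of -0.59, both with overlap.

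**Figure D4:**
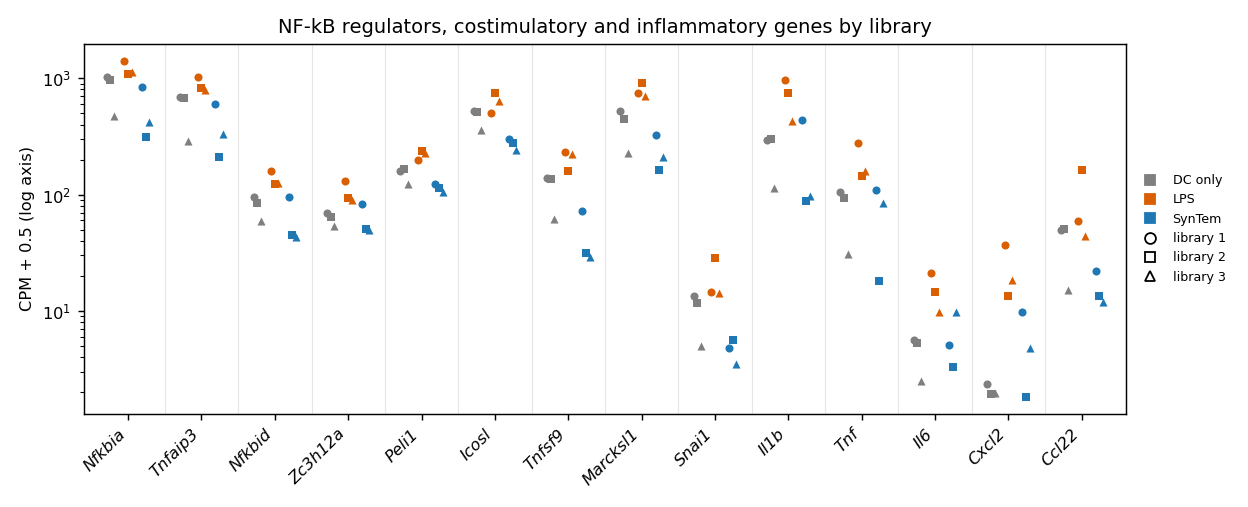
CPM + 0.5 on a log axis for 14 NF-kB regulators, costimulatory and inflammatory genes in DC only, LPS and SynTem libraries, 1 point a library. LPS lies above SynTem in every library for Nfkbid (123.1 to 159.7 against 43.16 to 94.19 CPM), Icosl and Tnfsf9, and SynTem 1 is the SynTem library closest to LPS for Il1b.

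No inflammatory cytokine passed the test with or without the block. Il1b, the precursor of interleukin 1 beta, was at 971.4, 742.7 and 431.7 CPM in LPS, 439.7, 87.09 and 97.59 CPM in SynTem and 295.2, 300.0 and 114.6 CPM with no stimulus (SynTem over LPS log2 -1.78 ± 0.66, edgeR adjusted p = 0.51). SynTem 1 was above LPS 3, but within each batch LPS was the higher. Tnf was at 276.0, 144.1 and 159.4 CPM in LPS and 109.3, 17.73 and 84.19 CPM in SynTem (log2 fold change -1.46 ± 0.64, edgeR adjusted p = 0.62). Il6 was at 20.61, 14.01 and 9.30 CPM in LPS and 4.61, 2.79 and 9.31 CPM in SynTem (log2 fold change -1.39 ± 0.48, edgeR adjusted p = 0.46), with LPS 3 and SynTem 3 alike. Il12b, the shared subunit of interleukins 12 and 23, overlapped widely, at 29.66, 18.16 and 12.04 CPM in LPS and 32.26, 8.30 and 3.32 CPM in SynTem. Over the 16 tested cytokines 9 estimates were negative, with a median of -0.23. At an unadjusted p under 0.05, 6 were lower with SynTem (3.72% of all genes) and 0 higher (4.25%). Groups did not overlap for 4 on the LPS side (7.14% of all genes) and 0 on the SynTem side (6.78%). Among the 8 with a mean of at least 5 CPM 6 were negative, with a median of -0.90. The median of the 16 was 0.32 with the Y-linked covariate, 0.12 without SynTem 2 and 0.027 without LPS 1, so its sign depended on the fit and on single libraries.

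Chemokines gave no common direction either, with 7 of 15 tested members positive and a median of -0.22, which became 0.70 without LPS 1. Cxcl2, a neutrophil attractant, was at 36.38, 13.06 and 17.81 CPM in LPS, 9.29, 1.33 and 4.33 CPM in SynTem and 1.43 to 1.88 CPM with no stimulus (log2 -2.18 ± 0.72, edgeR adjusted p = 0.43). The SynTem libraries did not overlap with LPS. Ccl22 and Ccl17, ligands of CCR4, differed in sign: Ccl22 was at 59.32, 161.0 and 43.18 CPM in LPS and 21.41, 12.86 and 11.50 CPM in SynTem, whereas Ccl17 was at 0.38, 0.24 and 0.06 CPM in LPS and 0.52, 1.77 and 2.49 CPM in SynTem. Their estimates were -2.53 ± 0.82 and 2.86 ± 0.94, with edgeR adjusted p values of 0.42 and 0.43. Cish, a cytokine-induced inhibitor of STAT5 signalling, was at 8.62, 35.53 and 72.45 CPM in SynTem and 3.71, 3.80 and 1.79 CPM in LPS (log2 3.66 ± 0.64, edgeR adjusted p = 0.097), and T cells express it as well.

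Further genes passed with batch as a block and missed the threshold in the fit without it, with edgeR adjusted p from 0.027 to 0.048 under the block and from 0.053 to 0.19 otherwise. Of those named here, Herpud1, Oaf, Nup54, Tmem200b, Inpp4b and Kbtbd11 also passed with the Y-linked covariate in place of the block. Herpud1, a component of protein degradation at the endoplasmic reticulum, was at 851.7, 1042 and 788.0 CPM in LPS and 556.6, 485.0 and 432.3 CPM in SynTem (block log2 -0.86 ± 0.11). Peli1, a ubiquitin ligase of Toll-like receptor signalling, was at 197.7, 235.7 and 227.7 CPM in LPS and 122.2, 112.6 and 104.5 CPM in SynTem (block log2 -0.96 ± 0.14). Snai1, a transcriptional repressor gene, was at 14.20, 28.32 and 13.78 CPM in LPS and 4.31, 5.19 and 3.02 CPM in SynTem (block log2 -2.15 ± 0.29). The 2 groups did not overlap for any of these genes. The others on the LPS side were Oaf, Tnfaip8, Fam110a, Nup54, Tmem200b and Crtc2, and on the SynTem side Inpp4b, Kbtbd11, Ddi2 and 9930111J21Rik1. Exon bases of Kbtbd11 overlap Gm37844 on the other strand by 24.8%, and those of Ddi2 overlap Rsc1a1 on the same strand by 18.3%.

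Gm15922, annotated as a polymorphic pseudogene (chr7:3731630-3739889, minus strand), was the gene called lower without the block. It was at 36.95, 43.93 and 41.50 CPM in LPS, 22.30, 20.84 and 20.81 CPM in SynTem and 40.25, 42.09 and 32.82 CPM with no stimulus, 1.91-fold higher with LPS than with SynTem (log2 -0.94 ± 0.12, edgeR adjusted p = 0.033). Its libraries were close together within each group, and LPS lay near DC only. The naming rule leaves out predicted Gm names, so this name was added after its values were seen. Without DC only 1, LPS 1, LPS 2, LPS 3, SynTem 2, SynTem 3 or AlloTem 1 it missed the threshold, with edgeR adjusted p up to 0.25.

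The receptor side of the LPS pathway showed little difference. Of 20 genes for the LPS receptor and its adaptors 9 had a positive estimate, with a median of -0.01, or 0.11 without SynTem 2, and none passed. Tlr4 was higher with SynTem, at 17.10, 11.53 and 15.42 CPM against 6.91, 6.89 and 5.21 CPM in LPS and 5.70 to 8.52 CPM with no stimulus, without overlap (log2 1.21 ± 0.26, edgeR adjusted p = 0.14). Cd14 was at 50.63, 12.48 and 33.26 CPM in SynTem and 79.11, 29.03 and 38.70 CPM in LPS, lower with SynTem in each batch. The 5 NF-kB subunit genes all had negative estimates, from -0.78 to -0.27, and the 24 NF-kB response genes had a median of -0.70 with 10 members not overlapping on the LPS side (7.14% of all genes) and none called. Their median was -1.08 without SynTem 1 and -0.33 without SynTem 2 and SynTem 3 together. Without SynTem 1, 1 member was called lower, where 5 of all 14844 tested genes were.

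No antigen presentation or metabolism gene of the lists given here passed the test with or without the block. MHC class II presentation genes had a median of -0.40 with 12 of 14 negative, and H2-Ab1, a class II beta chain, was at 2909, 2293 and 1988 CPM in SynTem and 3034, 3929 and 2623 CPM in LPS. The 10 DC lineage genes all had negative estimates with a median of -0.30, and the gap in their summed level differed by batch: 12380, 10090 and 8105 CPM in SynTem against 12530, 15940 and 11310 CPM in LPS. Oxidative phosphorylation genes had a median of -0.12 with 27 of 28 negative and glycolysis and hypoxia genes a median of 0.05 with 14 of 25 positive.

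**Figure D5:**
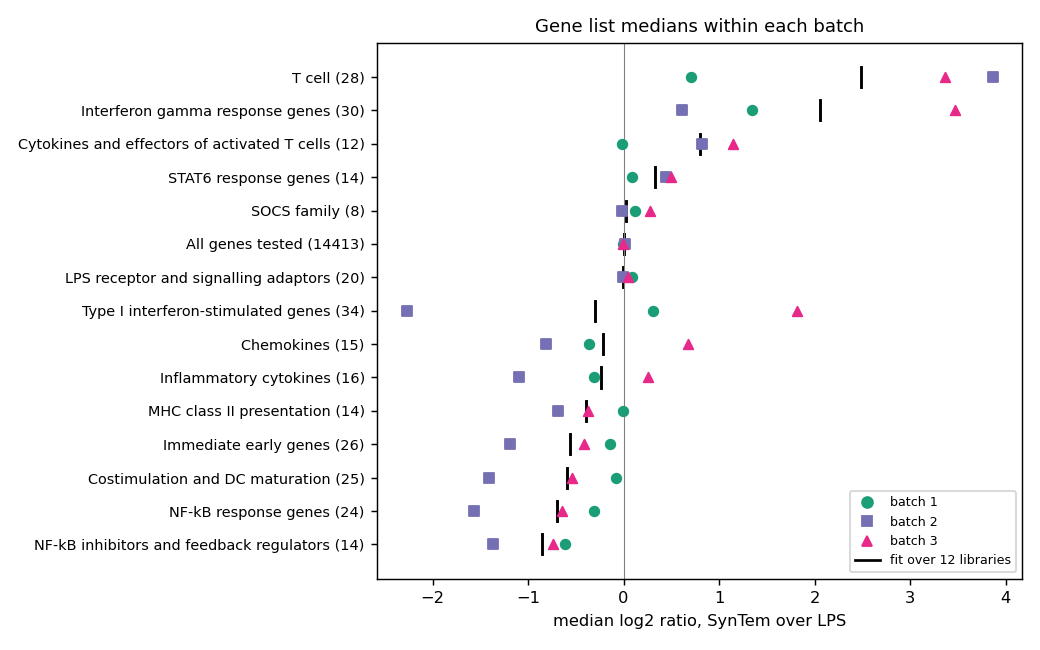
Median log2 ratio of SynTem over LPS within batch 1, 2 and 3 (points) and median of the fit over 12 libraries (bars) for 14 gene lists and all tested genes. T cell and interferon gamma lists are above 0 and the NF-kB inhibitor list below 0 in each batch, while type I interferon-stimulated genes range from -2.27 in batch 2 to 1.82 in batch 3.

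Markers of other cells were tallied in the same way, and no neutrophil, natural killer, erythroid or B cell gene of the lists passed with or without the block. Erythroid and platelet genes had a median of -1.03 with 9 of 12 negative, and 5 did not overlap on the LPS side (7.14% of all genes). Their summed level, 218.8, 398.5 and 302.3 CPM in SynTem and 311.3, 270.3 and 417.7 CPM in LPS, did overlap. Hbb-bs, a beta globin gene, was at 25.83, 14.90 and 20.11 CPM in LPS and 3.27, 10.01 and 8.95 CPM in SynTem. B cell and plasma cell genes had a median of -0.38 with 12 of 13 negative, and their summed level overlapped, at 359.1 to 528.8 CPM in SynTem and 433.9 to 536.4 CPM in LPS. The part of these cells in other results was not tested. The summed level of 17 neutrophil genes was 360.1, 148.3 and 1107 CPM in SynTem and 449.4, 251.6 and 219.5 CPM in LPS, and Mpo, the myeloperoxidase of granules, reached 564.8 CPM in SynTem 3 against 15.09 and 37.43 CPM in SynTem 1 and 2. Natural killer and cytotoxic genes summed to 1177, 477.6 and 476.0 CPM in SynTem and 1584, 432.7 and 189.5 CPM in LPS. SynTem 3, the library with the highest Mpo, was also the highest for Gbp2, Gbp7, Cxcl9 and Cxcl10, and the part of neutrophil RNA in those levels was not tested.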

How the data were processed

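RNA from sorted DCs was sequenced in 12 libraries, 3 for each of 4 groups, as single-end reads on a NextSeq after TruSeq preparation, per the labels' protocols. The authors deposited a table of raw read counts per Ensembl gene and a table of batch numbers. Per the submitters' processing notes, reads were placed on mm10. No source used here states the aligner, counter or strand setting. Of 57009 gene IDs 52028 matched a symbol in the reference tables (GENCODE M21 and a gene name table), and the unmatched IDs hold 0.763% of counts.

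Genes were kept by filterByExpr (minimum count 10, minimum total 15), scaled by TMM and fitted with edgeR 4.0.16 in R 4.3.3 (quasi-likelihood, robust), with 1 mean per group over all 12 libraries, the contrast SynTem minus LPS and Benjamini-Hochberg adjustment over 14413 genes at 0.05. A second fit added batch as a block. The batch table pairs the libraries by number. Deviations of SynTem and LPS libraries of the same number correlated across genes by 0.42, -0.01 and 0.12, and SynTem 2 correlated with LPS 3 by 0.45. Alternatives used other scalings, filters, covariates, left-out libraries, limma 3.58.1 (voom) and DESeq2 1.42.0. On simulated data for 14108 genes of this comparison, the fit without the block recovered 43 of the 99 genes given a 2-fold change and 72 of the 99 given a 4-fold change, and 3 of its 118 calls were false. DESeq2 made 30 false calls among 172. The simulated libraries held no batch, sex-linked or T cell RNA differences, so these rates need not hold for the real libraries.

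The members and gene lists were chosen with earlier results of these data known, so no list is independent evidence. Named genes were the 12 per direction of largest change among called genes with no predicted (Gm or Rik) name whose groups did not overlap and whose mean reached 5 CPM, filled up by smallest unadjusted p, 36 genes set in advance, and up to 3 per list of smallest p. Itgax, Izumo1r, Gm15922, Cd5, Cd6, Themis, Trdc, Cd40lg, Gbp7, Fam110a, Tmem200b, Ddi2 and 9930111J21Rik1 fall outside this rule and were named after their values were seen. Promoter windows are from RefSeq. Counting intervals are exact at the 95% level and cover counting error only.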

Additional observations from a re-analysis of the deposited data

How the results depend on the processing

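The count of called genes moved with most choices. Against 6 higher and 1 lower with SynTem, the fit with batch as a replicate block gave 15 and 13, DESeq2 146 and 52, limma voom 1 and 0, no filter on low counts 12 and 4, the Y-linked covariate 31 and 7, and a test against a fold of 1.5 gave 3 and 0. The number lower was 3 with upper quartile scaling, 3 with a minimum mean of 5 CPM and 2 with libraries thinned to the smallest. Counts were 0 and 0 in the 6 libraries alone with and without the replicate block, with the T cell covariate (634 genes at an unadjusted p under 0.05), and, as alternatives chosen after seeing the data, without DC only 2 and SynTem 2 and without SynTem 2 and SynTem 3. Without SynTem 2 and with the replicate block they were 11 and 3. The T cell covariate was the summed T cell list, which holds 4 of the called genes, so losing those calls was largely built in. Leaving out 1 library in turn gave 0 to 32 higher and 0 to 8 lower. The block changed no call other than adding 21, and all 7 were kept; RLE scaling gave 8 and 1.

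Some named genes changed sign, all without passing a test; the cause was not tested. Isg15 was 0.15 with the block, 1.03 with the Y-linked covariate, 0.14 without LPS 2 (-1.58 to 0.14 over the libraries left out in turn) and 1.16 without SynTem 2 with the block. With the T cell covariate Trdc was -0.53, Gzmb -2.12, Ifng -2.06 and Cd86 0.17. That covariate did not overlap between SynTem and LPS, so these signs cannot be fully told apart from the stimulus. Without SynTem 3 Cxcl9 was -0.15, Il12b 0.016 and Mpo -0.76, within leave-one-out ranges of -0.15 to 3.28, -1.78 to 0.016 and -0.76 to 2.79. Without SynTem 2 and SynTem 3 Cd86 was 0.075, Ccr7 0.32, Il12b 0.69, Cd14 0.045 and Mpo -1.56.
Depth limits genes with few reads most: Izumo1r, Themis and Cd40lg had 0 or 1 read over the LPS libraries, so their fold is a ratio or bound with a wide counting interval.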
